A study of Mus musculus with 18 samples.

Results

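Cytochrome P450 genes of families 1 to 4 were followed in mouse livers. The set holds the gene symbols of the count table that start with Cyp, carry a family number from 1 to 4, a subfamily letter and a gene number, and have at least 100 counts summed over the 18 livers. Of 24394 gene symbols, 48 met this rule. Another 27 symbols of the same form fell short of the count, 13 of them with 0 counts; the nearest to the limit were Cyp2s1 with 109 counts inside it, and Cyp2u1 with 91 and Cyp1b1 with 89 counts outside it. Libraries were Quantseq 3′ FWD, where each read marks the tail end of an mRNA. There were 3 groups of 6 livers. Mice of the Alb-Cre+/+;Stat3f/f genotype that bore tumours gave the first group (Stat3-deleted in what follows): Cre under the albumin promoter excises floxed Stat3 in hepatocytes. The labels do not say which other liver cells keep the gene. The second came from tumour-bearing wild-type (WT) mice and the third from control WT mice. The labels name PDA.69, a mouse pancreatic ductal adenocarcinoma line low in T cells and derived from KPC mice, for every liver, controls included. They give no sex, age, or site and time of implantation. No tumour-free Stat3-deleted livers were analysed here, so the genotype was compared in tumour-bearing mice only. Nothing in the labels says more of the replicates than that they are separate livers, so the p-values measure the spread between these livers.

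P450 enzymes are membrane-bound haem proteins that take electrons from P450 oxidoreductase and insert an oxygen atom into their substrate. Families 1 to 3 clear most drugs and foreign chemicals and hydroxylate steroids, and family 4 hydroxylates fatty acids and eicosanoids at the end of the chain. In liver they are made mainly by hepatocytes, many of them near the central vein, and nuclear receptors such as PXR, CAR and PPARα, together with the aryl hydrocarbon receptor, set their transcription. Inflammatory cytokines are known to lower many of them in liver, and a group of mouse P450 genes differs between the sexes under the control of growth hormone.

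Total counts ran between 7222882 and 9545442 for Stat3-deleted livers, between 6168658 and 8850200 for tumour-bearing WT livers and between 5212265 and 7159148 for control livers. Hepatocyte markers were abundant in all livers: 7 of the 8 chosen were in the table, with summed levels of 113804 to 136321 CPM (read counts scaled to library size, with TMM factors) in Stat3-deleted, 80172 to 186186 in tumour-bearing WT livers and 69954 to 105434 in control livers. The 8 chosen were Alb, Ttr, Apoa1, Apob, Tf, Ahsg, Serpinc1 and Fgb. Whether their sum follows the number of hepatocytes was not tested. Of the 5 pancreatic acinar markers, each stayed under 1 CPM on average. No list of tumour cell markers was made, so tumour cells in the liver were not checked for. Stat3 had 118 ± 12.8 CPM in Stat3-deleted, 213 ± 38.3 in tumour-bearing WT and 112 ± 19.1 in control livers (SD, n = 6 each), but a 3′ tag does not read the deleted part and checks no genotype. In a bulk sample, fewer hepatocytes and less P450 RNA per hepatocyte cannot be told apart. Both tumour-bearing WT replicate 6 and control replicate 2 stood apart. Hsd3b5, a male-biased steroid dehydrogenase, was at 4.09 CPM in that tumour-bearing WT liver and at 30.2 to 223 CPM in the other 5, and at 4.93 CPM in that control liver and at 88.5 to 211 CPM in the other 5. Male-biased Elovl3 was also lowest of its group in each, at 26.6 and 29.3 CPM. Other sex-biased genes differed between them. Female-biased Cyp2a4 was at 0.151 CPM in that tumour-bearing WT liver and at 138 CPM in that control liver. Male-specific Cyp2d9 was highest of its group in the first, at 1479.6 CPM, and lowest in the second, at 311 CPM. Ddx3y, a Y-linked gene, was at 149 CPM in tumour-bearing WT replicate 6 and at 135 CPM in control replicate 2, within the 116 to 208 CPM of all 18 livers, and Xist, transcribed from the inactive X of females, was at 2.76 CPM or less in all. The same pair had the highest level in their group for 25 and 20 of the 47 tested P450 genes. Label numbers put every Stat3-deleted liver in a run below all WT livers, so genotype and that run cannot be told apart.

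Taken as a sum, the 48 genes had 16162 to 22779 CPM in Stat3-deleted livers, with a median of 17518. The sum was 9313 to 19115 CPM in tumour-bearing WT livers (median 12630.3) and 12667 to 16017 in control livers (median 14773). Among tumour-bearing WT livers replicate 6 was the highest, with replicate 1 next at 13202 CPM, and replicate 4 was the lowest. Mean sums stood in a ratio of 1.41 for Stat3-deleted over tumour-bearing WT and of 0.880 for tumour-bearing WT over control. On unscaled library totals these ratios were 1.502 and 0.762. Tumour-bearing WT replicate 6 had a TMM factor of 0.750, the lowest of all livers, which raises its scaled CPM. On library totals its sum was 14321 CPM, with replicate 1 next at 13857 CPM. All Stat3-deleted sums, at 15436 CPM or more, then lay above all tumour-bearing WT sums.

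Each gene was tested with edgeR's quasi-likelihood test, and p-values were adjusted by Benjamini-Hochberg over the 11218 genes tested, with a threshold of 0.05. Of the 48 genes 47 were tested; Cyp2s1 was left out by the filter on low counts. In tumour-bearing WT against control livers, 1 P450 gene rose and 2 fell, against 1.76% of all tested genes called higher and 0.49% called lower (2.25% in either direction). The log2 fold change was negative for 32 of 47 and positive for 15, with a median of −0.29; of all genes 49.4% were negative and 50.6% positive, with a median of 0.004. In this comparison 1 P450 gene, Cyp3a13, lay above every control liver in all 6 livers and 0 lay below every control liver, against 1.05% and 0.464% of all genes. The unadjusted p was under 0.05 for 16 of the 47, against 16.2% of all genes. In Stat3-deleted against tumour-bearing WT livers, 10 rose and 1 fell, which is 23.4% of the 47, where 2.89% of all tested genes were called higher and 3.23% lower (6.12% together). The log2 fold change was positive for 37 of 47 and negative for 10, with a median of 0.57; of all genes 45.9% were positive and 54.1% negative, with a median of −0.03. All Stat3-deleted livers lay above all tumour-bearing WT livers for 5 of the 47 and below them for 1, Cyp3a13, against 1.4% and 1.9% of all genes. The unadjusted p was under 0.05 for 28 of the 47, against 19.4% of all genes. In Stat3-deleted against control livers, 2 rose and 0 fell in edgeR, with 2.19% of all genes higher and 2.66% lower (4.85% together); the log2 fold change was positive for 35 and negative for 12, with 49.1% and 50.9% of all genes. For 11 of the 47 the unadjusted p was under 0.05, against 20.8% of all genes, and beside the count of 0 that fell, DESeq2 called 1 lower and limma voom 1. The first and second comparisons share the tumour-bearing WT livers, so high or low values there enter both with opposite sign.

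**Figure D1:**
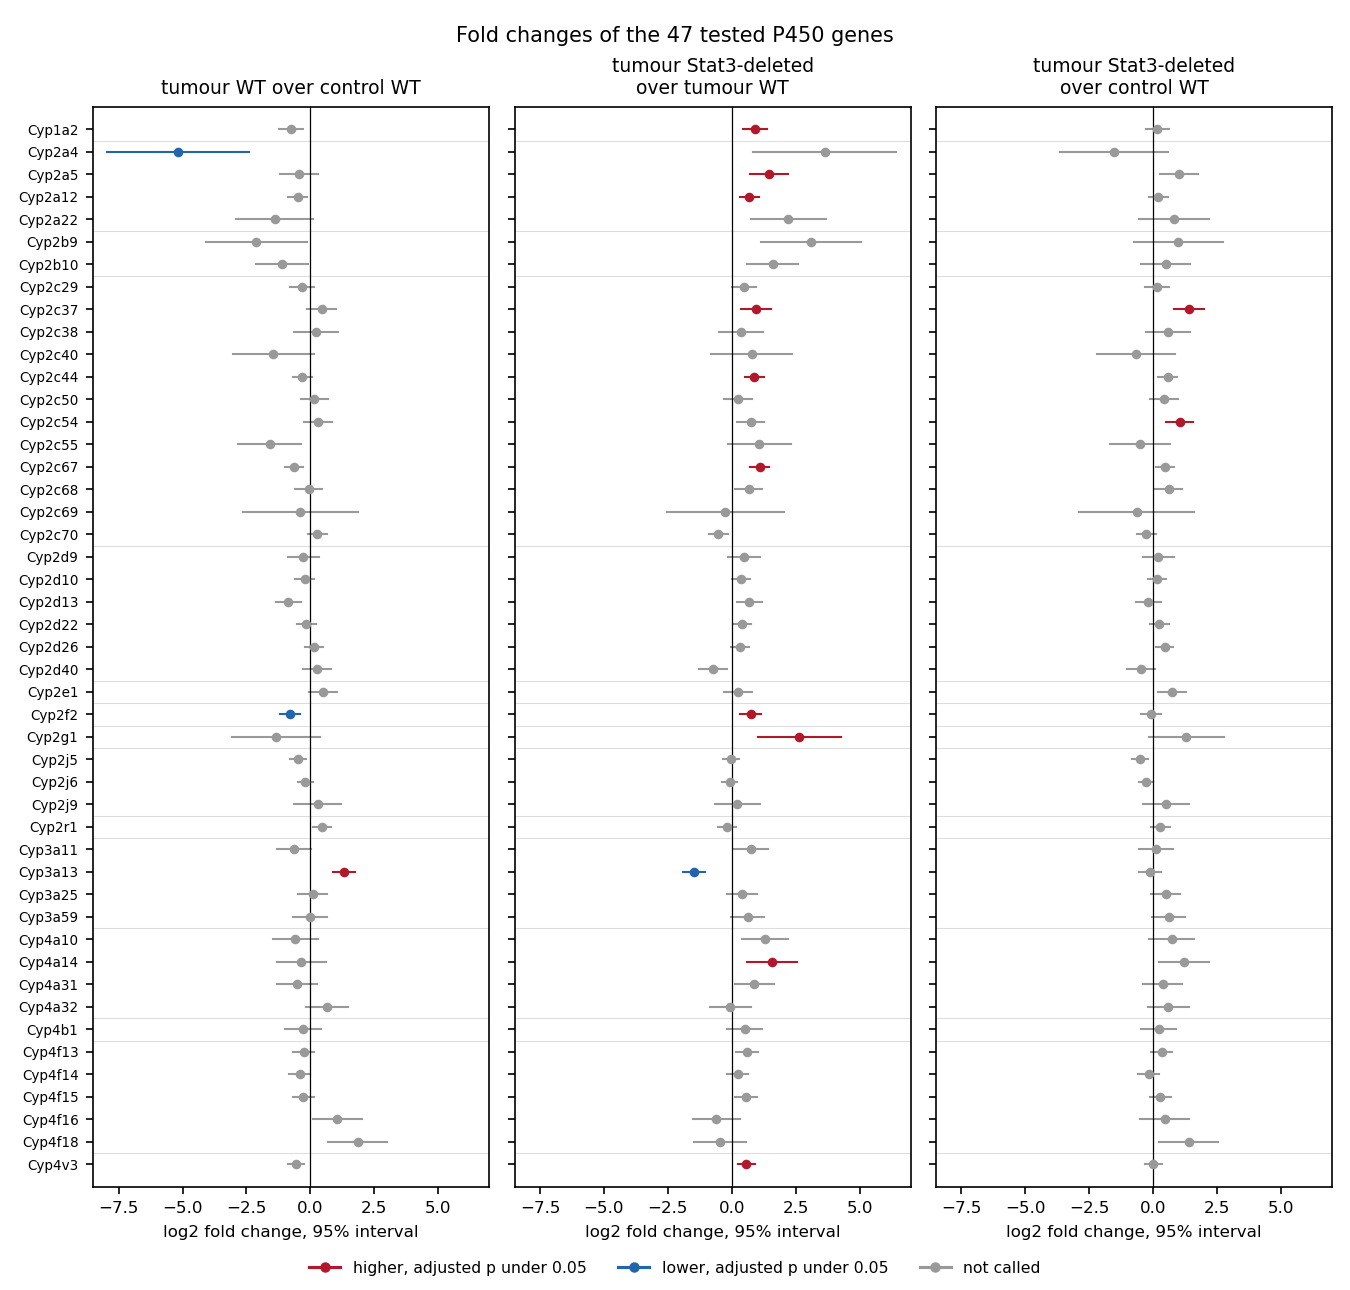
Log2 fold change (first-named over second-named group) of the 47 tested genes with 95% intervals, ordered by subfamily, in the 3 comparisons; red marks genes called higher and blue genes called lower at an adjusted p under 0.05. The middle panel, Stat3-deleted over tumour-bearing WT, has 10 genes called higher and 1 called lower.

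The count of 10 moved with single livers. Leaving out tumour-bearing WT replicate 3 gave 4, leaving out replicate 2 or 4 gave 6 and leaving out replicate 6 gave 18. Leaving out Stat3-deleted replicate 2 or 6 gave 5. Leaving out both control replicate 2 and tumour-bearing WT replicate 6, a choice made after seeing the data, gave 22 higher and 2 lower. In that fit the first comparison had 1 higher and 3 lower, and the third 13 higher and 1 lower. Tumour-bearing WT replicate 4 had the lowest level in its group for 20 of 47 genes. It also had the highest level of Saa1, an acute-phase gene, at 48555 CPM. The other 5 livers of the group had 5493 to 21682 CPM of Saa1. The next highest, at 21682 CPM, was replicate 6, which had the highest level in the group for 25 of the 47 genes. Biliary markers summed to 28.4 to 43.7 CPM in Stat3-deleted, 43.5 to 148 in tumour-bearing WT livers and 30.6 to 55.3 in control livers, with Epcam under 1 CPM on average. Which cells gave the biliary marker level was not tested. The part of the acute-phase level, of the biliary marker level or of the hepatocyte marker level in the P450 levels was not tested.

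**Figure D2:**
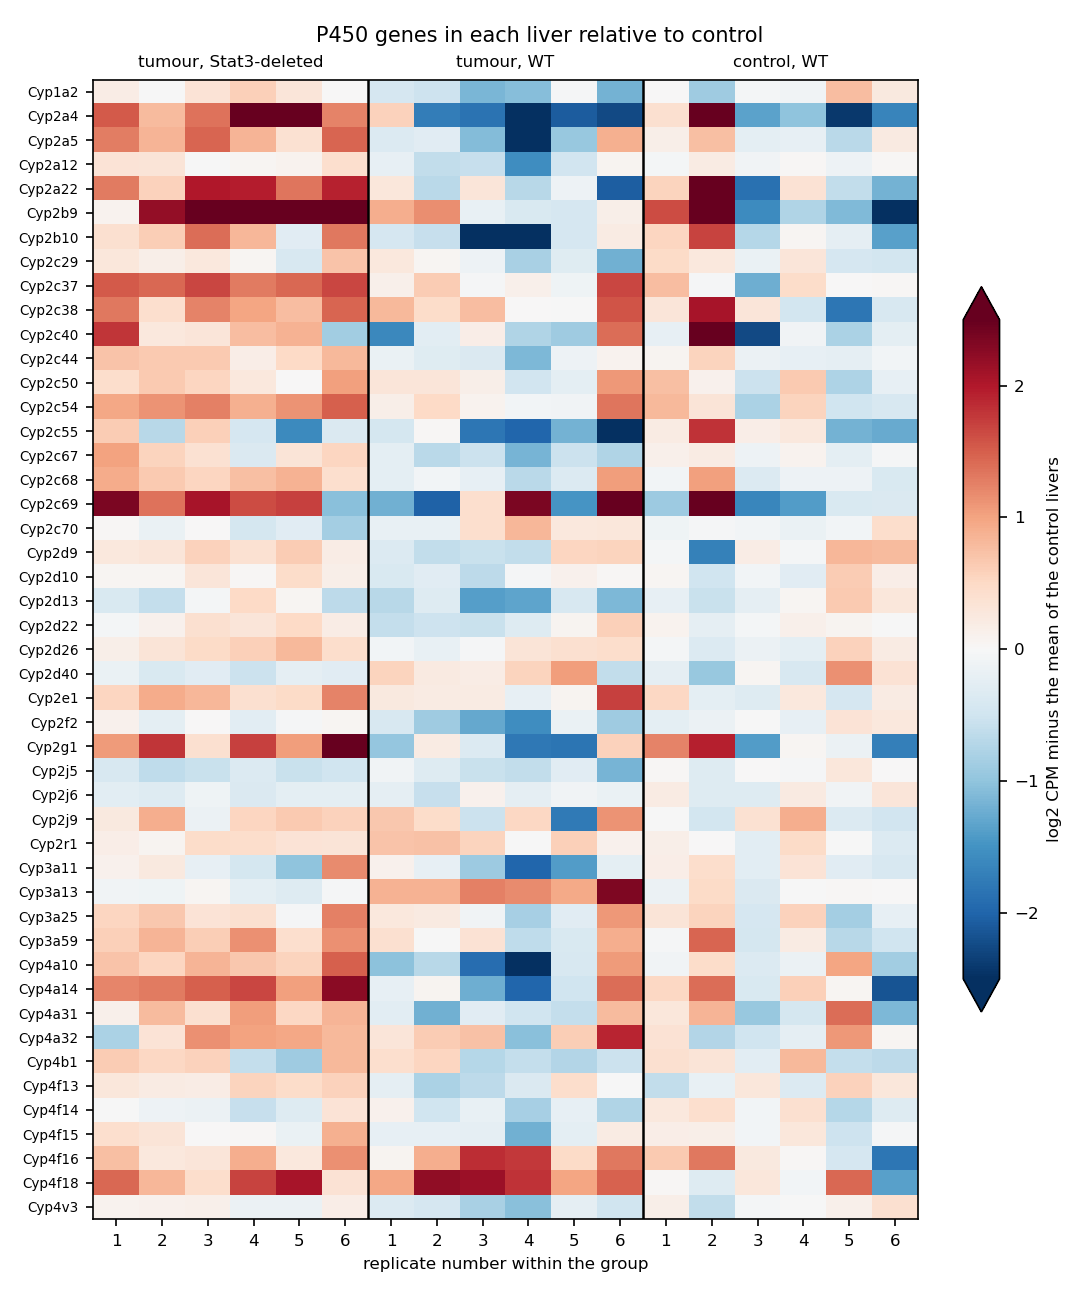
Log2 CPM of each tested gene in each liver minus the mean of the 6 control livers, with the livers in columns by group and replicate number and the colour scale held between −2.5 and 2.5. Tumour-bearing WT replicates 3 and 4 are lower than every control liver for 18 and 21 of the 47 genes, and replicate 6 is higher than every control liver for 14.

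Cyp3a13, a member of the steroid- and drug-oxidising CYP3A family that is also expressed in the gut, was the only called gene whose mean was higher in tumour-bearing WT livers than in both other groups. It was at 138 to 180.4 CPM in Stat3-deleted livers (median 162), at 315 to 872 CPM in tumour-bearing WT livers (median 365) and at 135 to 244 CPM in control livers (median 173). Every tumour-bearing WT liver lay above every liver of the other groups. It rose in tumour-bearing WT over control livers with a log2 fold change of 1.33 (95% interval 0.89 to 1.76, adjusted p = 0.000542 in edgeR). It fell in Stat3-deleted against tumour-bearing WT livers, with a log2 fold change of −1.46 (interval −1.90 to −1.03, adjusted p = 9.26e-05). Stat3-deleted and control livers overlapped, at −0.14 (interval −0.57 to 0.29, adjusted p = 0.762). Replicate 6 was the highest of the tumour-bearing WT livers; without it the changes were 1.01 and −1.15, and no omission of a liver ended either call. Within the lower and the higher run of label numbers, 3 livers against 3, the tumour-bearing WT over control change of Cyp3a13 was 0.97 (adjusted p = 0.136 in edgeR) and 1.61 (adjusted p = 0.0809).

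The Cyp3a13 gene lies on chromosome 5, 137892933 to 137925610, minus strand, on GRCm38.p6, the assembly of mm10, and overlaps the predicted gene Gm15502 on the same strand, so tags from the overlap cannot be told apart. Its last 300 transcript bases share no 50-base stretch with any other gene of the annotation. Its RefSeq promoter window, 250 bases before to 50 after the start, is shown since this gene moved opposite to the other genes called in those comparisons. The start that the promoter table uses lies inside the gene bounds given above, downstream of their outer end, so the window is that of an internal start. The window, chr5:137921570-137921869 on the minus strand, holds none of the 7 motifs searched on both strands, so no letters are in capitals.
Cyp3a13: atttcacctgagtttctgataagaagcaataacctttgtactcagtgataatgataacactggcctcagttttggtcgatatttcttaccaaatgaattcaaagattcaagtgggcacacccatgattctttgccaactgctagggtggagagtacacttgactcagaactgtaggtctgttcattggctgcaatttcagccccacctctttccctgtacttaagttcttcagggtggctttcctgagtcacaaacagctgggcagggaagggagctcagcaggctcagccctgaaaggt

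The other CYP3A genes did not pass the test in any comparison. Cyp3a11, the main PXR-induced CYP3A gene of mouse liver, was at 600.2 to 2751 CPM in Stat3-deleted, 307 to 1310.0 in tumour-bearing WT livers and 917 to 1646 in control livers, with medians of 1174, 839 and 1186. The groups overlapped widely. Its log2 fold change was 0.74 in Stat3-deleted over tumour-bearing WT (interval 0.07 to 1.42, adjusted p = 0.205 in edgeR). Cyp3a25 and Cyp3a59 had log2 fold changes of 0.40 and 0.64 in the same comparison, and of 0.09 and −0.02 in tumour-bearing WT over control.

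**Figure D3:**
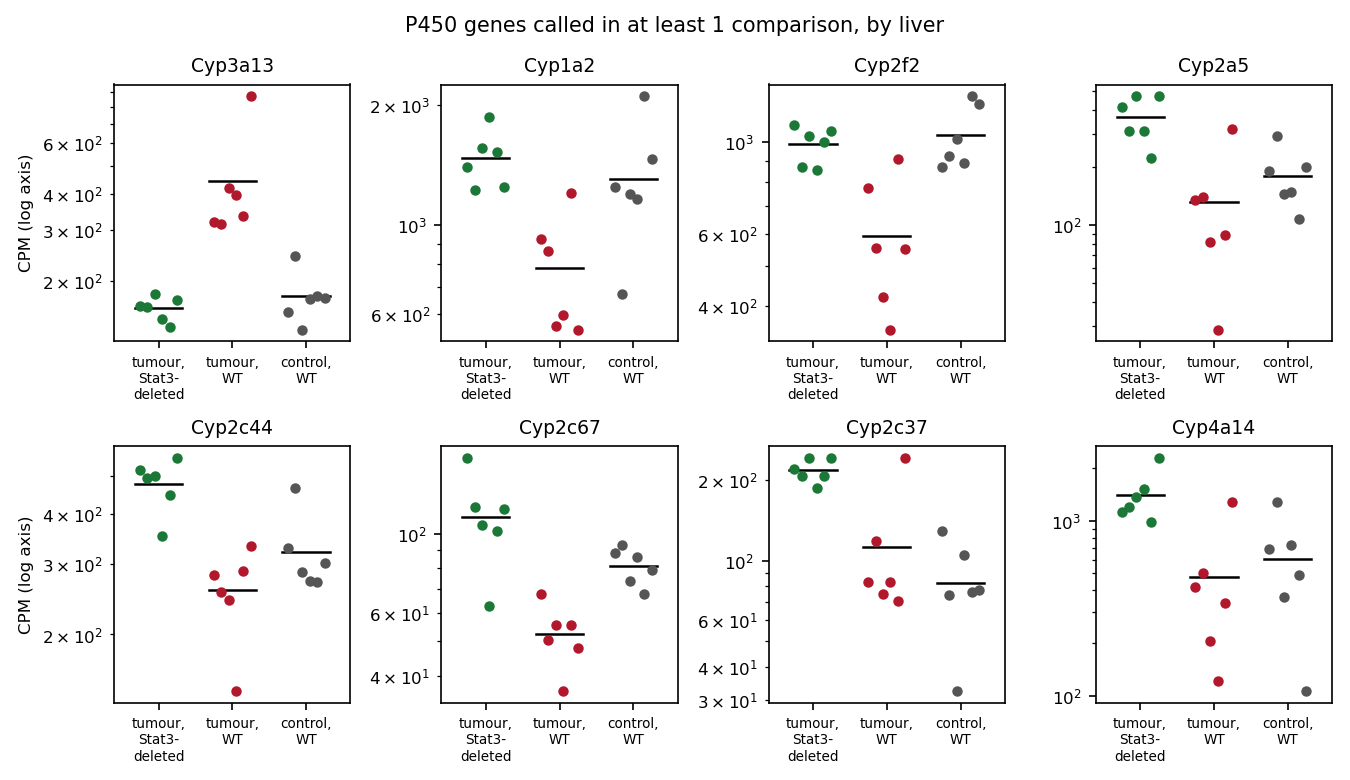
CPM on a log axis of 8 of the genes called in at least 1 comparison, 1 point per liver, with the group mean as a bar; groups run from tumour-bearing Stat3-deleted to tumour-bearing WT to control WT. Cyp3a13 is high in tumour-bearing WT livers, at 315 to 872 CPM, and the other 7 have lower means there than in Stat3-deleted livers.

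Cyp1a2, the caffeine- and arylamine-oxidising enzyme under the aryl hydrocarbon receptor, is the member of subfamily 1a. It was at 1225 to 1869 CPM in Stat3-deleted livers (median 1467), at 548 to 1206 CPM in tumour-bearing WT livers (median 730.2) and at 671 to 2108 CPM in control livers (median 1223). Each Stat3-deleted liver was above each tumour-bearing WT liver. The control range overlapped both, and 3 tumour-bearing WT livers lay below every control liver. The lowest control liver was replicate 2. It rose in Stat3-deleted over tumour-bearing WT livers, with a log2 fold change of 0.91 (interval 0.44 to 1.38, adjusted p = 0.0161 in edgeR), and no omission of a liver ended the call. Tumour-bearing WT over control gave −0.74 (interval −1.21 to −0.27, adjusted p = 0.0913). This change failed in 16 of 18 omissions, and passed without control replicate 2 (−0.89, adjusted p = 0.0241) and without tumour-bearing WT replicate 5 (−0.91, adjusted p = 0.0267). It passed in 3 of 12 alternative fits: DESeq2 (adjusted p = 0.0346), library totals and the fit without both livers that stood apart. Of the 2 measured targets of that receptor outside the P450 genes, Tiparp fell in Stat3-deleted against tumour-bearing WT livers, with a log2 fold change of −0.98 (adjusted p = 0.0343), a call lost in 8 of 18 omissions (adjusted p up to 0.0958), on library totals and with these groups fitted alone.

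Subfamily 2a holds 4 of the genes, summing to 721 to 1087 CPM in Stat3-deleted, 185 to 799 in tumour-bearing WT livers and 527 to 959 in control livers. In Stat3-deleted over tumour-bearing WT livers 2 of the 4 rose and 2 did not pass. Cyp2a5, the coumarin hydroxylase, was at 224 to 470.5 CPM in Stat3-deleted livers (median 362), 28.6 to 319 in tumour-bearing WT (median 112) and 107 to 290.0 in control livers (median 169.9). The Stat3-deleted livers lay above all tumour-bearing WT livers but replicate 6. Cyp2a5 rose by a log2 fold change of 1.47 (interval 0.72 to 2.22, adjusted p = 0.0154 in edgeR), a call that no omission of a liver ended. Cyp2a12, a steroid hydroxylase, rose by 0.69 (interval 0.32 to 1.06, adjusted p = 0.0223 in edgeR), with 450.1 to 608 CPM in Stat3-deleted, 156 to 479.9 in tumour-bearing WT livers and 419 to 523 in control livers. The Cyp2a12 call was lost on omission of replicate 2 or 3 of the tumour-bearing WT livers or 2 or 6 of the Stat3-deleted livers, up to an adjusted p of 0.0557, and with these groups fitted alone (adjusted p = 0.0507).

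Cyp2a4, a testosterone hydroxylase that is female-biased in mouse liver, was at 3.51 to 16.9 CPM in Stat3-deleted livers (median 5.65), at 0 to 2.94 in tumour-bearing WT livers (median 0.309) and at 0.137 to 138 in control livers (median 0.665). The Stat3-deleted livers were above every tumour-bearing WT liver and above every control liver but replicate 2, which held 138 CPM where the next control liver held 2.59. Cyp2a4 was called lower in tumour-bearing WT against control livers, with a log2 fold change of −5.17 (interval −7.94 to −2.39, adjusted p = 0.0417 in edgeR). Without control replicate 2 the change was −0.46 (adjusted p = 0.816), and 8 other omissions ended the call too, as did limma voom (adjusted p = 0.531). Stat3-deleted over tumour-bearing WT gave 3.64 (interval 0.84 to 6.43, adjusted p = 0.124), and without control replicate 2, which enters through the shared spread, 3.61 (adjusted p = 0.00183). Against control livers the Cyp2a4 change was −1.53 (adjusted p = 0.412) with all livers and 3.15 (adjusted p = 0.0135) without that one.

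**Figure D4:**
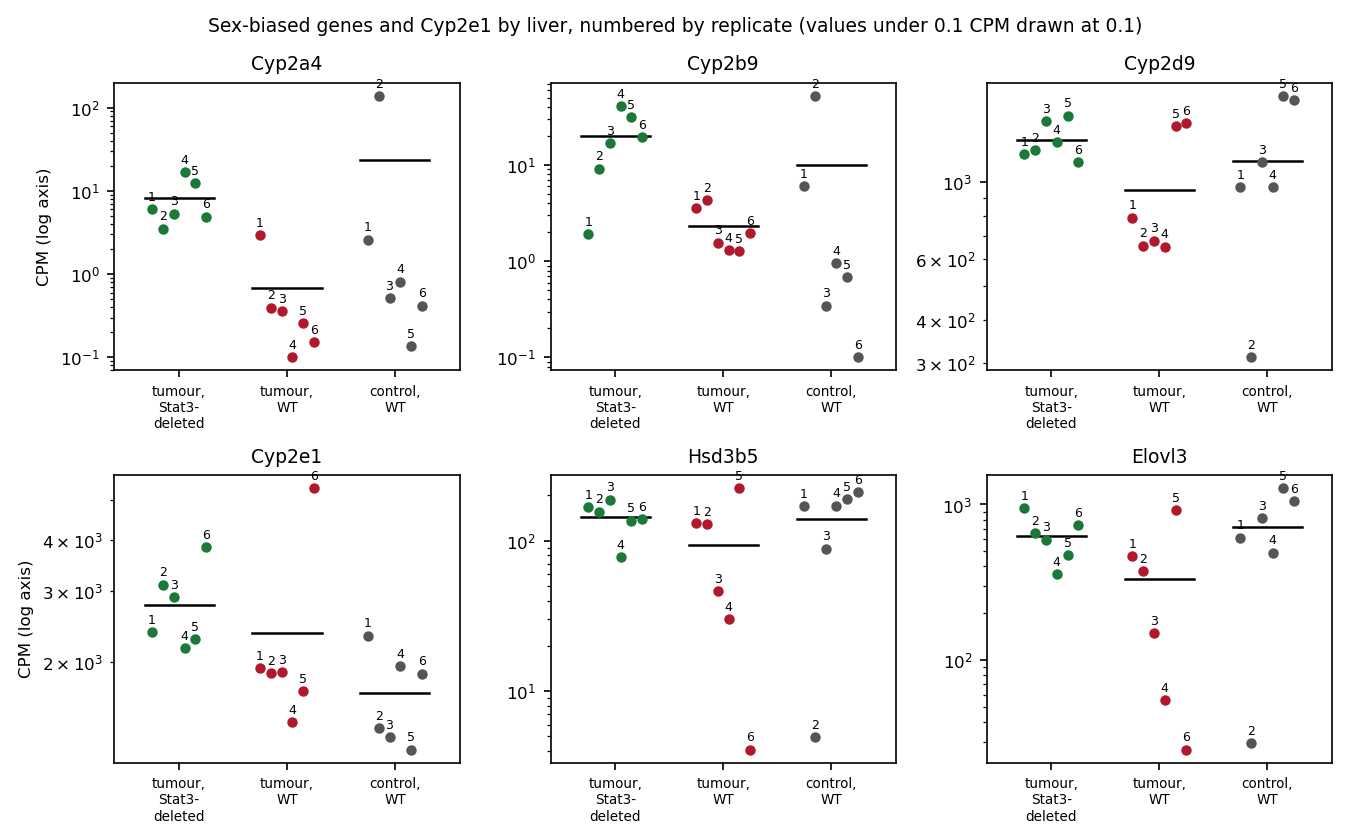
CPM on a log axis in each liver for Cyp2a4, Cyp2b9, Cyp2d9 and Cyp2e1 and for the male-biased genes Hsd3b5 and Elovl3, with points numbered by replicate and bars at the group mean; values under 0.1 CPM are drawn at 0.1. Control replicate 2 is the highest control liver for Cyp2a4 (138 CPM) and Cyp2b9 (52.2 CPM) and the lowest for Cyp2d9 (311 CPM), Hsd3b5 (4.93 CPM) and Elovl3 (29.3 CPM).

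Cyp2a4 and Cyp2a5 are near-copies on chromosome 7, at 26307192 to 26315088 and 26835339 to 26843264, both on the plus strand. Of the last 300 bases of the Cyp2a4 transcript 22.3% of the 50-base stretches also occur in Cyp2a5, so part of the low Cyp2a4 count is uncertain. Their promoter windows are shown since the genes differ so widely in level between livers while 294 of 299 aligned bases are identical (98.3%). Capitals mark the 5 differing bases. With positions counted from 1 at the 5′ end of the Cyp2a4 window, and the Cyp2a4 base written first, these are C19T, T131C, G161A, G205T and T270C. The windows are chr7:26306942-26307241 and chr7:26835089-26835388.
Cyp2a4: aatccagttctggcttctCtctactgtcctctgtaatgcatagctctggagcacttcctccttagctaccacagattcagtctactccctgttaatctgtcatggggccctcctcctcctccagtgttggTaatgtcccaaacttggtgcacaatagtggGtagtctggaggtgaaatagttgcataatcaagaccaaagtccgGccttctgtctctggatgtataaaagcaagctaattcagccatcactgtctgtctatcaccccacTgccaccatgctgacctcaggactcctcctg
Cyp2a5: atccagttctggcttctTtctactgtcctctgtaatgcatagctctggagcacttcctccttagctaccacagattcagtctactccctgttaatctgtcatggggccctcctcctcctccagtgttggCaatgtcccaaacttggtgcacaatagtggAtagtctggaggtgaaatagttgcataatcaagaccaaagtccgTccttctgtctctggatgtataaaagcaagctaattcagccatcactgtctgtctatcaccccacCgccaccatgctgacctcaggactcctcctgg

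Subfamily 2b, the classic CAR-induced genes, had a summed level of 17.2 to 61.8 CPM in Stat3-deleted, 2.89 to 15.3 in tumour-bearing WT livers and 4.32 to 90.1 in control livers. All Stat3-deleted sums were above all tumour-bearing WT sums. Cyp2b10 was at 9.45 to 30.9 CPM in Stat3-deleted (median 19.3), 1.32 to 13.3 in tumour-bearing WT (median 8.07) and 4.32 to 37.9 in control livers (median 10.96). Its log2 fold change in Stat3-deleted over tumour-bearing WT was 1.60 (interval 0.59 to 2.601) and did not pass the test (adjusted p = 0.0514 in edgeR). Cyp2b9, a female-biased gene, had 1.91 to 41.0 CPM in Stat3-deleted livers (median 18.2), 1.28 to 4.35 in tumour-bearing WT (median 1.77) and 0 to 52.2 in control livers (median 0.817). The high control value was again replicate 2. The Stat3-deleted over tumour-bearing WT change of Cyp2b9 was 3.10 (interval 1.13 to 5.07, adjusted p = 0.0551 in edgeR). Without control replicate 2 both passed in that comparison, Cyp2b10 at 1.60 (adjusted p = 0.0258) and Cyp2b9 at 3.10 (adjusted p = 0.00429).

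Subfamily 2c has 12 of the genes, all on chromosome 19: 11 lie side by side between 39006940 and 40187286, and Cyp2c44 lies further along, at 44005022 to 44029256. It metabolises drugs, and several members turn arachidonic acid into epoxides. The summed level was 2729 to 3991 CPM in Stat3-deleted, 2285 to 3034 in tumour-bearing WT livers and 2052 to 3329.8 in control livers. In Stat3-deleted over tumour-bearing WT livers 3 of the 12 rose and 10 had a positive log2 fold change, with a median of 0.70. Over control livers 2 rose. Tumour-bearing WT against control gave 0 calls by edgeR, with 2 of 12 at an unadjusted p under 0.05 and 7 negative.

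Cyp2c44, an arachidonic acid epoxygenase listed by RefSeq as Cyp2c23, was at 353 to 554 CPM in Stat3-deleted livers (median 495), 144 to 334 in tumour-bearing WT (median 269) and 270.3 to 464 in control livers (median 294). The Stat3-deleted livers were above every tumour-bearing WT liver, and all but replicates 4 and 5 above every control liver. Cyp2c44 rose by a log2 fold change of 0.88 over tumour-bearing WT (interval 0.52 to 1.25, adjusted p = 0.00312 in edgeR), and no omission of a liver ended the call. Cyp2c67 rose by 1.10 in the same comparison (interval 0.73 to 1.47, adjusted p = 0.000373 in edgeR), the smallest adjusted p of the genes that rose. It was at 62.8 to 164 CPM in Stat3-deleted livers (median 112), 36.2 to 67.9 in tumour-bearing WT (median 53.0) and 67.8 to 93.2 in control livers (median 82.5). Stat3-deleted replicate 4 was the liver that lay below the highest tumour-bearing WT liver, and tumour-bearing WT replicate 1 the one that touched the control range. Tumour-bearing WT over control gave −0.64 for Cyp2c67 (interval −1.01 to −0.27, adjusted p = 0.058). That change passed in 5 of 12 alternative fits and failed in 15 of 18 omissions of a liver.

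The Cyp2c67 tag is not unique: 45.4% of the 50-base stretches of its last 300 bases occur also in Cyp2c40 or Cyp2c68, so its level is uncertain to that extent. For Cyp2c40 the share was 53.8%. The Cyp2c67 promoter window is shown since this gene had that smallest p and its letters recur in its neighbours. On chr19:39648993-39649292, minus strand, capitals mark the letters CAAAGTCCA at 125 bases before the start, a sequence bound by HNF4α, then TTGCNNAA, a C/EBP motif, at 85 bases before it, and TATAAA at 40 bases before it.
Cyp2c67: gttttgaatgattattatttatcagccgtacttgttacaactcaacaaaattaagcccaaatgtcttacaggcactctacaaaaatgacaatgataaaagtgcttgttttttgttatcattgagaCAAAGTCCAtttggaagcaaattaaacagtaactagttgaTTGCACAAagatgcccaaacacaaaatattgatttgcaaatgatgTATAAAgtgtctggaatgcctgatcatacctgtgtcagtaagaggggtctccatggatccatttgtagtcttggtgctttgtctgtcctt
The CAAAGTCCA letters were in 6 of 40 P450 promoter windows and in 0.477% of all 27025 windows of the table. Of the 6, Cyp2c40, Cyp2c67, Cyp2c68 and Cyp2c69 have windows that are 91.6 to 98.9% identical where they align, so they are copies and not separate occurrences; the others are Cyp2c70 and Cyp3a11. TATAAA was in 50% of the P450 windows and 14.2% of all, TTGCNNAA in 27.5% and 10.8%, and the nuclear receptor motif AGGTCA in 27.5% and 16%. TTCNNNGAA, the motif of STAT factors, was in 2 of 40 (5%), Cyp4b1 and Cyp4f13, and in 8.47% of all. The aryl hydrocarbon receptor core GCGTG was in 17.5% and 32.5% and the HNF1 motif in 2.5% and 0.437%.

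Cyp2c37 and its neighbour Cyp2c54 were the genes that rose in Stat3-deleted over control livers. Cyp2c37 was at 187 to 242 CPM in Stat3-deleted (median 213), 70.7 to 242 in tumour-bearing WT (median 82.9) and 32.5 to 129 in control livers (median 76.9). Every Stat3-deleted liver was above every control liver and above all tumour-bearing WT livers but replicate 6, which reached 242 CPM. The log2 fold change of Cyp2c37 was 1.40 over control (interval 0.81 to 1.98, adjusted p = 0.00807 in edgeR) and 0.96 over tumour-bearing WT (interval 0.37 to 1.54, adjusted p = 0.0435). The first call survived every omission of a liver, while the second was lost in 14 of 18 omissions, with an adjusted p up to 0.108. Cyp2c54 had 193 to 292 CPM in Stat3-deleted livers (median 225), 97.0 to 263 in tumour-bearing WT (median 112) and 59.6 to 182 in control livers (median 104). It rose by a log2 fold change of 1.04 over control (interval 0.49 to 1.58, adjusted p = 0.0249 in edgeR), with no overlap between the groups, and the call was lost in 6 of 18 omissions, with an adjusted p up to 0.0606. Of the Cyp2c54 end 13.5% of the 50-base stretches occur in Cyp2c37 or Cyp2c50, so the neighbours may share some tags. Of the 47 genes 2 lay wholly above the control livers in this comparison, against 1.98% of all genes, and 1, Cyp2j5, wholly below, against 1.84%.

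Cyp2c29, another arachidonic acid epoxygenase, did not pass the test: it was at 710.0 to 1539.7 CPM in Stat3-deleted, 412 to 1127 in tumour-bearing WT livers and 683 to 1320.2 in control livers. Cyp2c70, which makes the muricholic acids of rodent bile, had the opposite sign to most of the subfamily, with a log2 fold change of −0.54 in Stat3-deleted over tumour-bearing WT (interval −0.91 to −0.16, adjusted p = 0.0832 in edgeR) and 0.26 in tumour-bearing WT over control. The other 6 genes had log2 fold changes of −0.26 to 1.08 in Stat3-deleted over tumour-bearing WT.

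In subfamily 2d, whose members hydroxylate steroids and basic drugs, 0 of 6 genes were called by edgeR in any comparison; 1, 4 and 1 had an unadjusted p under 0.05 in tumour-bearing WT over control, Stat3-deleted over tumour-bearing WT and Stat3-deleted over control. Cyp2d9, a male-specific testosterone hydroxylase, was at 1143 to 1555 CPM in Stat3-deleted (median 1271), 651 to 1479.6 in tumour-bearing WT (median 733) and 311 to 1773 in control livers (median 1053). The tumour-bearing WT livers split into 4 at 651 to 789 CPM and replicates 5 and 6 at 1453 and 1479.6 CPM. The low control liver was replicate 2. The Stat3-deleted over tumour-bearing WT change was 0.48 (interval −0.13 to 1.09, adjusted p = 0.395 in edgeR). Cyp2d13 is a transcribed pseudogene in RefSeq, with a change of −0.87 in tumour-bearing WT over control (adjusted p = 0.0518).

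Cyp2e1, the ethanol-oxidising enzyme of pericentral hepatocytes, was at 2161 to 3834 CPM in Stat3-deleted (median 2628), 1421 to 5352 in tumour-bearing WT (median 1885) and 1218 to 2322 in control livers (median 1623). The highest tumour-bearing WT liver, replicate 6, stood far above the next at 1935 CPM. The change in Stat3-deleted over tumour-bearing WT was 0.23 (interval −0.32 to 0.78, adjusted p = 0.69 in edgeR), and 0.66 (adjusted p = 0.0296) with control replicate 2 and tumour-bearing WT replicate 6 both left out. Of its end, 33.9% of the 50-base stretches occur in other annotated transcripts, such as Fcho2.

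Cyp2f2, a naphthalene-oxidising enzyme that in liver is periportal, was called in both comparisons with tumour-bearing WT livers. It was at 854 to 1098 CPM in Stat3-deleted (median 1017), 351 to 911 in tumour-bearing WT (median 552) and 869 to 1291 in control livers (median 973). Replicate 5 was the highest tumour-bearing WT liver and reached both other ranges. Cyp2f2 fell in tumour-bearing WT against control livers, with a log2 fold change of −0.81 (interval −1.20 to −0.42, adjusted p = 0.0237 in edgeR), a call lost without control replicate 5 or 6 or tumour-bearing WT replicate 3 or 4, with these groups fitted alone (adjusted p = 0.0751) and in the fit blocked on label-number run (adjusted p = 0.0786). Within the runs of label numbers that change was −0.70 (adjusted p = 0.362) and −0.92 (adjusted p = 0.278), with 3 livers against 3. It rose in Stat3-deleted over tumour-bearing WT livers by 0.73 (interval 0.34 to 1.13, adjusted p = 0.0201), a call lost without tumour-bearing WT replicate 3, at an adjusted p of 0.0585. The gene overlaps the predicted Gm15883 on the other strand, and the counting strand is not given in the sources used here.

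Cyp2g1, known from the olfactory mucosa, is barely expressed in liver. It was at 0.964 to 6.08 CPM in Stat3-deleted, 0 to 1.06 in tumour-bearing WT livers and 0 to 3.24 in control livers. Its rise over tumour-bearing WT, 2.65 on the log2 scale (interval 1.01 to 4.29, adjusted p = 0.0476 in edgeR), was lost in 13 of 18 omissions of a liver, with an adjusted p up to 0.125, and in limma voom (adjusted p = 0.0623).

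None of the 3 genes of subfamily 2j passed in edgeR with all livers, with 1, 0 and 1 at an unadjusted p under 0.05 in the 3 comparisons. Cyp2j5, an arachidonic acid epoxygenase of kidney and liver, was at 641 to 785 CPM in Stat3-deleted (median 692), 444 to 943 in tumour-bearing WT (median 735) and 793 to 1219 in control livers (median 1006). All Stat3-deleted livers were below all control livers, yet the change of −0.51 (interval −0.82 to −0.19) missed the threshold, at an adjusted p of 0.0571 in edgeR. Tumour-bearing WT over control gave −0.48 for Cyp2j5 (adjusted p = 0.106) and Stat3-deleted over tumour-bearing WT −0.03 (interval −0.34 to 0.29, adjusted p = 0.942). Without control replicate 2 the change of Cyp2j5 against control was −0.58 (adjusted p = 0.0328). Cyp2j6 and Cyp2j9 did not pass in any comparison, and neither did Cyp2r1, a vitamin D 25-hydroxylase, at 11.02 to 14.6 CPM in Stat3-deleted, 10.5 to 17.7 in tumour-bearing WT livers and 8.21 to 14.9 in control livers.

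**Figure D5:**
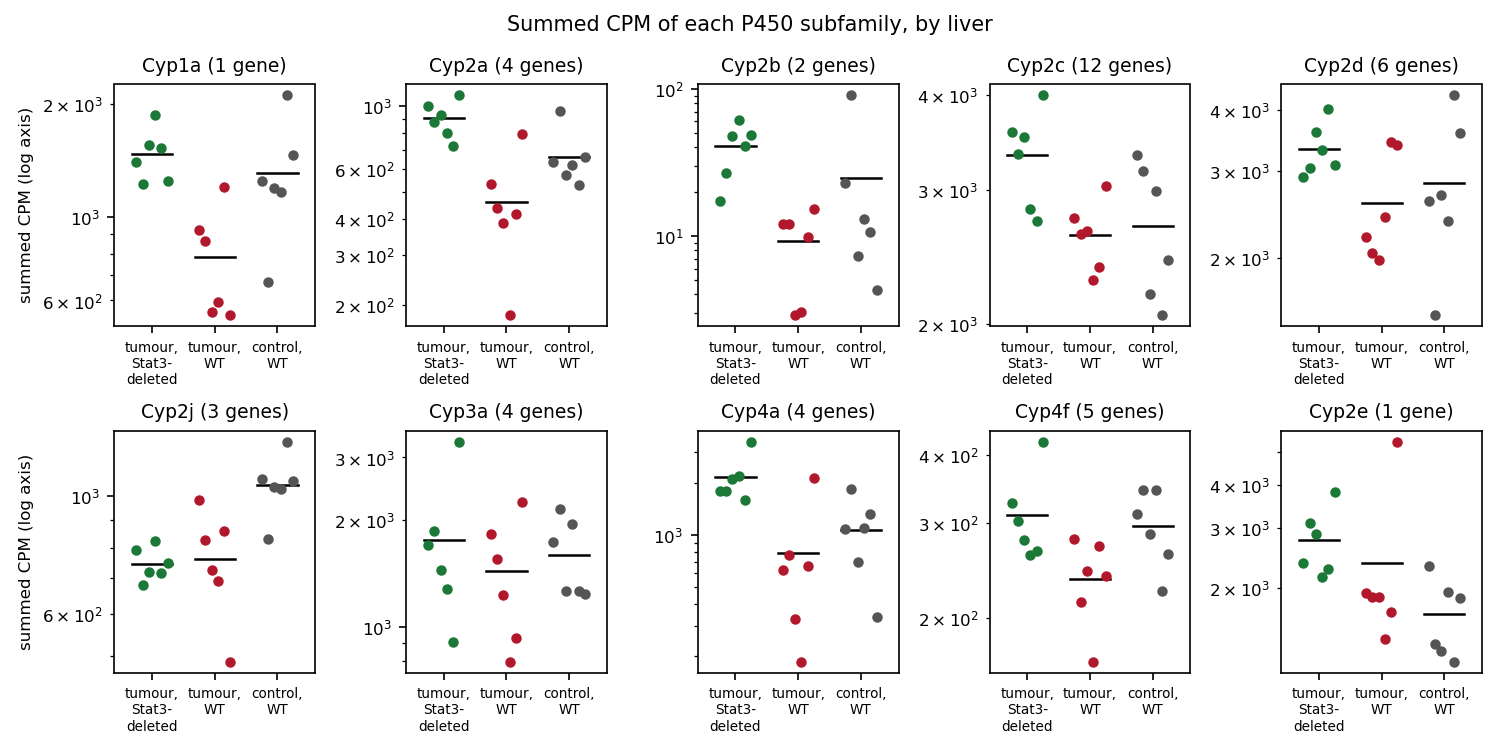
Summed CPM of each subfamily on a log axis, 1 point per liver with the group mean as a bar, from tumour-bearing Stat3-deleted to tumour-bearing WT to control WT. Over the 10 subfamilies plotted, ratios of the mean sums of Stat3-deleted over tumour-bearing WT run from 0.979 for Cyp2j to 4.42 for Cyp2b; no test was made of these sums.

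Subfamily 4a holds the PPARα-induced fatty acid hydroxylases. Its summed level was 1593 to 3445 CPM in Stat3-deleted, 185 to 2145 in tumour-bearing WT livers and 337 to 1843 in control livers, with medians of 1953, 644 and 1089. The ratio of the mean sums was 2.74 for Stat3-deleted over tumour-bearing WT and 2.03 for Stat3-deleted over control. Cyp4a14 was at 978 to 2282 CPM in Stat3-deleted livers (median 1273), 122 to 1271 in tumour-bearing WT (median 379) and 107 to 1270.2 in control livers (median 589). In tumour-bearing WT livers replicate 6 was the highest, and the other 5 were at 504 CPM or less. Cyp4a14 rose by a log2 fold change of 1.56 over tumour-bearing WT (interval 0.59 to 2.53, adjusted p = 0.0491 in edgeR), a call lost in 15 of 18 omissions and also in DESeq2 (adjusted p = 0.056). Cyp4a10, whose range was 584 to 1138 CPM in Stat3-deleted, 55.1 to 838 CPM in tumour-bearing WT and 220.4 to 797 CPM in control livers, had 1.31 over tumour-bearing WT and did not pass (interval 0.42 to 2.20, adjusted p = 0.0772). Cyp4a31 and Cyp4a32 had changes of 0.89 and −0.05, and 60.2% of the 50-base stretches of the Cyp4a32 end occur in Cyp4a10 or Cyp4a31, so its level is uncertain.

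Cyp4v3, a fatty acid hydroxylase whose human counterpart is mutated in a retinal dystrophy, was at 363 to 453 CPM in Stat3-deleted (median 431), 197 to 345 in tumour-bearing WT (median 293) and 264 to 532 in control livers (median 423). All Stat3-deleted livers were above all tumour-bearing WT livers. It rose by a log2 fold change of 0.57 (interval 0.24 to 0.89, adjusted p = 0.0325 in edgeR), and the call was lost in 6 of 18 omissions, with an adjusted p up to 0.0854. Tumour-bearing WT over control gave −0.56 for Cyp4v3 (interval −0.89 to −0.23, adjusted p = 0.0625 in edgeR). That change passed in 3 of 12 alternative fits and failed in 15 of 18 omissions. The Cyp4v3 gene overlaps the predicted gene Gm45753 on the same strand, and its last 300 transcript bases share no 50-base stretch with any other annotated gene. Besides Cyp4v3, Cyp1a2, Cyp2c44, Cyp2a4 and the low Cyp2a22 lay wholly above the tumour-bearing WT livers, 5 of 47 genes, where the share of all tested genes was 1.4%.

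Of the 5 genes of subfamily 4f, which hydroxylates leukotrienes and, in humans, vitamins E and K, 0 were called by edgeR in any comparison; 3, 2 and 1 had an unadjusted p under 0.05 in tumour-bearing WT over control, Stat3-deleted over tumour-bearing WT and Stat3-deleted over control. Cyp4f14 was at 104 to 196 CPM in Stat3-deleted, 87.3 to 167 in tumour-bearing WT livers and 95.1 to 208 in control livers. Cyp4f18, the leukotriene B4 hydroxylase of mouse neutrophils, was at 0.646 to 2.75 CPM in Stat3-deleted, 1.08 to 3.03 in tumour-bearing WT livers and 0 to 1.64 in control livers. Its change in tumour-bearing WT over control, 1.85 (interval 0.70 to 2.99, adjusted p = 0.0826 in edgeR), was the largest positive one of the 47 genes. The 5 neutrophil markers summed to 36.3 to 104 CPM in Stat3-deleted, 66.2 to 346 in tumour-bearing WT livers and 23.4 to 51.3 in control livers; their part in the Cyp4f18 level was not tested. Cyp4b1, a fatty acid hydroxylase best known from lung, did not pass, with 4.17 to 14.1 CPM in Stat3-deleted, 4.61 to 11.46 in tumour-bearing WT livers and 4.87 to 13.9 in control livers.

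Genes that P450 enzymes depend on were counted too. Of 18 measured genes of electron transfer and haem supply, edgeR called 0 in tumour-bearing WT over control and 0 in Stat3-deleted over tumour-bearing WT. Of all genes, 2.25% and 6.12% were called there. In each comparison 5 of the 18 had an unadjusted p under 0.05, with 16.2% and 19.4% of all genes. In Stat3-deleted over control 1 rose (5.56%, with 2.19% of all genes), the haem-breakdown enzyme gene Blvrb. Its change was 0.59 (adjusted p = 0.0173 in edgeR, and 0.0536 on library totals). Por, the P450 oxidoreductase, had a log2 fold change of 0.10 in Stat3-deleted over tumour-bearing WT (adjusted p = 0.925) and 0.76 in tumour-bearing WT over control (adjusted p = 0.334). It was at 749 CPM in tumour-bearing WT replicate 6 and at 134 to 166 CPM in the other 5.

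Among 27 measured regulators of P450 transcription, 7 rose and 1 fell in Stat3-deleted against tumour-bearing WT livers, with a median of 0.17. That is 25.9% higher and 3.7% lower, with 2.89% and 3.23% of all genes. Nr1i2, which encodes PXR, rose to 125 ± 16.7 CPM in Stat3-deleted livers, against 71.2 ± 15.5 in tumour-bearing WT livers (log2 fold change 0.81, adjusted p = 0.00324 in edgeR; SD, n = 6 each). Nr0b2, the corepressor SHP, rose by 1.18 (adjusted p = 0.0029). The clock repressors Nr1d2 and Nr1d1, known as REV-ERBβ and REV-ERBα, rose by 0.77 (adjusted p = 0.00216) and 1.14 (adjusted p = 0.00509); the labels give no time of day of sampling. In tumour-bearing WT against control livers 1 regulator fell (3.7%, with 0.49% of all genes), Onecut1, also called HNF6. Its log2 fold change was −2.16 (adjusted p = 0.0417 in edgeR), a call lost in 8 of 18 omissions. In Stat3-deleted against control livers 5 regulators rose (18.5%, with 2.19% of all genes) and 3 fell (11.1%, with 2.66%). By edgeR, Onecut1 (−3.88, adjusted p = 0.00115) and the glucocorticoid receptor gene Nr3c1 (−0.76, adjusted p = 0.00914) fell. Nfe2l2, or NRF2, fell as well (−0.84, adjusted p = 0.0161), and the clock output factor Tef rose (1.06, adjusted p = 0.0115). Hnf4a and Cebpa, both main hepatocyte factors, did not pass in any comparison.

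Targets of the same receptors outside the P450 genes were counted as well. Of 16 measured CAR and PXR targets, 4 rose in Stat3-deleted over tumour-bearing WT livers (median 0.50). In tumour-bearing WT against control livers 4 fell (median −0.28). Each count is 25% of the list, with 2.89% of all genes higher and 0.49% lower in these comparisons. Ces2a, a carboxylesterase gene, averaged 340.4 ± 50.4 CPM in Stat3-deleted, 162 ± 58.2 in tumour-bearing WT and 283 ± 54.0 in control livers (SD, n = 6 each). It rose by 1.07 over tumour-bearing WT (adjusted p = 0.00194 in edgeR), and tumour-bearing WT livers had −0.81 against control (adjusted p = 0.0335). The sulfate donor synthase gene Papss2 had 0.66 (adjusted p = 0.0107) and −0.64 (adjusted p = 0.027) in the same comparisons, and the other gene called in both was the glutathione transferase gene Gsta2, at 2.57 and −2.29. Gstm1 rose by 1.41 in Stat3-deleted over tumour-bearing WT (adjusted p = 0.000661) and Gstm3 fell in tumour-bearing WT against control (−1.27, adjusted p = 0.0441). In tumour-bearing WT against control the Ces2a and Gstm3 calls were each lost in 8 of 18 omissions (adjusted p up to 0.0993 and 0.118) and the Papss2 call in 4, and all 3 were lost with these groups fitted alone. Of 22 PPARα targets, 5 rose in Stat3-deleted over tumour-bearing WT (22.7%, with 2.89% of all genes, median 0.47). By edgeR, the peroxisome gene Pex11a rose by 1.19 (adjusted p = 0.000284) and the thioesterase gene Acot1 by 2.00 (adjusted p = 0.000604). The β-oxidation genes Cpt2 at 0.51 (adjusted p = 0.0131) and Hadha at 0.51 (adjusted p = 0.0179, and 0.0546 on 1 omission) rose too. In tumour-bearing WT over control 0 of the 22 were called by edgeR (median −0.19), where 2.25% of all genes were. There 5 had an unadjusted p under 0.05, with 16.2% of all genes. Over control livers, Stat3-deleted livers had 1 that rose (4.55%, with 2.19% of all genes), Pex11a. Its change was 0.75 (adjusted p = 0.0235 in edgeR), a call lost in 2 of 18 omissions and on library totals.

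Zonated and sex-biased genes were counted last. Of 13 pericentral genes 1 (7.69%, with 3.23% of all genes) fell in Stat3-deleted against tumour-bearing WT livers. It was Tbx3, a transcription factor (−1.42, adjusted p = 0.00017 in edgeR). In tumour-bearing WT over control livers 1 rose (7.69%, with 1.76% of all genes), Glul, the glutamine synthetase gene (0.65, adjusted p = 0.0368 in edgeR). The Glul call was lost in 10 of 18 omissions, on library totals and in limma voom, up to an adjusted p of 0.661 over the alternatives. Of 14 periportal genes 3 (21.4%, with 2.89% of all genes) rose in Stat3-deleted over tumour-bearing WT livers. By edgeR these were Hsd17b6 (1.93, adjusted p = 9.26e-05), Hsd17b13 (0.86, adjusted p = 0.00696) and Etnppl (1.41, adjusted p = 0.0123). In tumour-bearing WT against control livers 1 fell (7.14%, with 0.49% of all genes), Etnppl (−1.71, adjusted p = 0.0061 in edgeR). No omission of a liver ended that call, and it was lost within the lower label-number run. Of 13 male-biased genes outside families 1 to 4, 2 (15.4%, with 0.49% of all genes) fell in tumour-bearing WT against control livers, the urinary protein gene Mup20 (−1.83, adjusted p = 0.0244) and Ugt2b38 (−3.55, adjusted p = 0.0102); both also fell in Stat3-deleted against control livers (−2.54 and −2.56), as did the complement gene C6 (−1.004), so that 23.1% of the list was lower there, with 2.66% of all genes. The Mup20 call against control was lost in 5 of 18 omissions in tumour-bearing WT livers, and in Stat3-deleted livers the Ugt2b38 and C6 calls were lost in 6 and 9 of 18; limma voom gave neither of these, nor the Ugt2b38 call in tumour-bearing WT livers. In this list 0 were called by edgeR in Stat3-deleted over tumour-bearing WT, where 2 had an unadjusted p under 0.05. Of 5 measured female-biased genes, 0 were called by edgeR in any comparison, with 1 at an unadjusted p under 0.05 in each. Cyp4a12a, a male-biased fatty acid hydroxylase whose symbol lies outside the rule, was at 339 to 557 CPM in Stat3-deleted, 42.8 to 741 in tumour-bearing WT livers and 163 to 1040.5 in control livers and did not pass. Of 10 P450 genes of other families, Cyp51 of cholesterol synthesis rose in tumour-bearing WT over control livers (0.62, adjusted p = 0.0405) and Cyp7a1, the rate-limiting enzyme of bile acid synthesis, fell in Stat3-deleted against tumour-bearing WT livers (−1.53, adjusted p = 0.0475). Each is 10% of its list, with 1.76% of all genes higher and 3.23% lower in these comparisons. The Cyp51 and Cyp7a1 calls were lost in 10 and 12 of 18 omissions of a liver.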

How the data were processed

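The deposited table holds raw read counts per gene symbol for 18 livers, 6 a group. Per the labels' protocols, RNA was extracted with TRIzol and RNeasy Mini columns and made into Quantseq 3′ FWD libraries; STAR and mm10 are named per the submitters' processing notes. Which counter, annotation and strand setting were used is not given in the sources used here. All columns were used, so 0 were left out. Of 24421 symbols, 27 that a spreadsheet had turned into dates, 0.103 to 0.166% of counts, were dropped. A 3′ tag gives about 1 read per transcript. The tests compared each gene between livers and did not compare genes with one another.

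Genes passing edgeR's filterByExpr (11218) were fitted together in edgeR 4.0.16 (R 4.3.3) with TMM scaling, the quasi-likelihood test, 3 group means and 15 residual degrees of freedom, with Benjamini-Hochberg adjustment over all tested genes; log2 CPM uses a prior count of 2, and intervals are at 95%. The common biological coefficient of variation was 0.281. The steps were tested on simulated data. Alternatives were DESeq2 1.42.0, limma 3.58.1 voom with quality weights, other scalings and filters, the compared groups alone, blocks for replicate number and label-number run, and omission of each liver; fits within the label-number runs and without both livers that stood apart were chosen after seeing the data. Named genes are those called in a comparison, the highest of each subfamily, and those with at least 10 CPM among the 3 largest changes of a comparison; the others are named to account for their subfamily and were picked after their values were seen. The members and all gene lists were chosen with earlier results of these data known. Promoter windows come from RefSeq on GRCm38.p6; 48 members matched it, 40 with a window. Sharing of 3′ ends was counted as 50-base stretches of the last 300 bases, for 46 members with a GENCODE transcript. Subfamily sums and cell markers were not tested.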

Additional observations from a re-analysis of the deposited data

Results flagged for a closer look

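For 23 named P450 genes in 3 groups, 69 sets of 6 livers were looked at. In 7 of them a liver's distance to its nearest neighbour was over 0.625 of the range of the 6. About 1 in 20 sets of 6 independent, normally distributed values would pass that mark. The 69 sets share their livers and many of the genes were named for their changes, so no chance rate is given for them. Cyp2a4 was highest in tumour-bearing WT replicate 1, at 2.94 CPM where the next liver had 0.395 (ratio 0.634), and in control replicate 2, at 138 CPM where the next had 2.59 (ratio 0.666). Cyp2c44 was lowest in tumour-bearing WT replicate 4, at 144 CPM against 244 (ratio 0.628), and highest in control replicate 2, at 464 CPM against 330.2 (ratio 0.630). Cyp2d9 was lowest in control replicate 2, at 311 CPM against 965 (ratio 0.651). Tumour-bearing WT replicate 6 was highest for Cyp2e1, at 5352 CPM against 1935 (ratio 0.767), and for Cyp3a13, at 872 CPM against 418 (ratio 0.724). Control replicate 2 accounts for 3 of the 7 and tumour-bearing WT replicate 6 for 2.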

How the results depend on the processing

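Counts of P450 genes called moved with the processing; the cause was not tested. In tumour-bearing WT against control livers (1 higher, 2 lower), library totals gave 7 lower, DESeq2 2 higher and 6 lower, limma voom 2 higher and 1 lower, both the groups alone and the label-number run as a block 1 lower, and fits within the lower and higher runs 0 higher and 0 lower each, with medians of −0.38 and −0.15. Omission of a liver gave 1 to 2 higher and 0 to 6 lower: 6 lower without tumour-bearing WT replicate 1, 4 without replicate 5 of that group, Stat3-deleted replicate 4 or control replicate 2, and 0 without tumour-bearing WT replicate 3 or 4. In Stat3-deleted against tumour-bearing WT livers (10 higher, 1 lower), library totals gave 16 higher, limma voom 17 higher, the groups alone 2 lower, and omission of a liver 4 to 18 higher and 1 to 2 lower, with 13 higher without control replicate 2. In Stat3-deleted against control livers (2 higher, 0 lower), the groups alone gave 5 higher and 1 lower, DESeq2 1 lower, limma voom 9 higher and 1 lower, and omission of a liver 1 to 9 higher and 0 to 1 lower, with 9 higher without control replicate 2, 5 without tumour-bearing WT replicate 6 and 4 without its replicate 4 or Stat3-deleted replicate 4. Leaving out control replicate 2 and tumour-bearing WT replicate 6 together gave 1 higher and 3 lower, 22 and 2, and 13 and 1 in the 3 comparisons. The replicate block gave 1 higher and 2 lower, 15 and 1, and 5 and 0. Same-numbered livers had a correlation of deviations over 0.1 in 1, 2 and 1 of 6 pairs in these comparisons. Their mean correlations were 0.041, 0.078 and −0.0007, against −0.008, −0.016 and 0.0004 for other pairs. Most same-numbered control and tumour-bearing WT livers carry adjacent label numbers. With 6 pairs, these correlations cannot settle whether the numbers pair the livers. The median change in Stat3-deleted against control livers was 0.222 on library totals, 0.451 with the block, 0.477 in limma voom and as low as 0.240 on omission of a liver, against 0.33. With library totals the median over all tested genes moved by −0.19, 0.07 and −0.12 in the 3 comparisons, and the share of called genes that were higher was 39.4, 61.1 and 27.2% there, against 78.2, 47.2 and 45.2% with TMM; 36, 7 and 14 P450 genes were then negative, against 32, 10 and 12.

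Sign changes were seen for changes that were not called by the main test. In Stat3-deleted against control livers these were Cyp3a11 on library totals (−0.0126) and with the replicate block (−0.0637), Cyp4v3 on library totals (−0.11) and without both livers that stood apart (−0.098), Cyp2a4 with the replicate block (1.71), in limma voom (1.58) and without both livers (3.16), and Cyp2f2 in limma voom (0.0085). In tumour-bearing WT against control livers they were Cyp2c54 in the lower run (−0.0073), Cyp4a14 in the higher run (0.39), and Cyp2b9 in limma voom (0.39) and without both livers (0.55), and Cyp2j5 in Stat3-deleted against tumour-bearing WT on library totals (0.0088). Omission of a liver gave −2.41 to 0.50 for Cyp2b9 and −0.0013 to 0.47 for Cyp2c54 in tumour-bearing WT against control, −0.13 to 0.064 for Cyp2j5 in Stat3-deleted against tumour-bearing WT, and −1.87 to 3.15 for Cyp2a4, −0.0025 to 0.37 for Cyp2d9, −0.11 to 0.091 for Cyp4v3 and −0.23 to 0.26 for Cyp3a11 in Stat3-deleted against control.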
